A study of Mus musculus with 24 samples.

Results

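DNA methylation was described at 9 genes of the synapse in liver, brain and heart. The genes were the vesicle fusion protein gene Snap25, the calcium sensor gene Syt1, the neurotrophin gene Bdnf, the presynaptic adhesion gene Nrxn2, the postsynaptic scaffold genes Dlg4 (PSD-95), Dlgap2, Shank2 and Shank3, and the kinase gene Camk2a. They were taken by name, 9 of 24963 autosomal genes with a curated RefSeq transcript, with no methylation threshold in the rule, although earlier results of these data were known when the names were chosen. Their regions ran from 5 kb upstream of the first transcription start to the gene end (mm10) and held 1242 of the 1005908 tiles of 100 bp in the tables. Of these, 1010 were measured in all 3 tissues and entered the tests.

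Reduced representation bisulphite sequencing (RRBS), which reads cytosine methylation in the CpG-rich part of the genome, was performed on tissue of untreated C57BL/6J mice aged 24 weeks. There were 12 liver libraries (6 male and 6 female), 6 brain libraries and 6 heart libraries (3 male and 3 female each). The brain piece was a 5 mm section of the rostral brain, the heart piece came from the apex and the liver piece from the left lobe, so each library mixed many cell types. The library columns named no mouse, so libraries were grouped by tissue, genders were not compared, and library numbers below only follow the column order.

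In transmission, an action potential opens calcium channels, synaptotagmin senses the calcium, and the SNARE complex, of which SNAP25 is a part, fuses the vesicle with the membrane. Across the cleft, PSD-95, the SAP-associated proteins such as DLGAP2 and the SHANK proteins form a layered scaffold beneath the glutamate receptors, where CaMKII relays calcium signals. Neurexins bridge the cleft by binding postsynaptic partners, and BDNF is secreted in response to activity. CpG-rich promoters are commonly unmethylated in most tissues whether or not the gene is used, and gene bodies are commonly methylated. These genes have little known role in liver, and many have several start sites.

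Methylation levels are given as the percent of read cytosines in CpGs that were methylated, as mean ± SD over the libraries of a tissue (n = 12 liver, 6 brain and 6 heart throughout), and differences in percentage points. A tile was called where the limma test gave an adjusted p of at most 0.01 and a difference of at least 25 points. A promoter (tiles within 1000 bp of a curated start) or a body was called at the same p and at least 10 points. The depth behind each level is unknown, because the tables held fractions without read counts. In a mixed tissue, an intermediate level cannot tell a share of cells that carry a methylated copy from a mixture within each cell.

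Over all shared tiles liver averaged 65.3% ± 0.332, brain 65.2% ± 0.917 and heart 59.8% ± 0.255, so heart was lower across the genome and brain libraries varied most. At the member tiles the median SD between libraries was 5.86 points in brain, against 4.53 in liver and 4.55 in heart. The tissue labels were checked against marker genes. In the hepatocyte list, 5 of 5 promoters and 7 of 8 bodies were lowest in liver. In the cardiomyocyte list, 4 of 7 promoters and 8 of 9 bodies were lowest in heart, and the other 3 promoters were lowest in brain, 2 of them by the call against heart. In the neuron list, 7 of 10 promoters and 4 of 7 bodies were lowest in brain. Over the whole neuron list, 1 promoter and 2 bodies were called lower in brain than in liver. Of these, the Eno2 body was lowest in heart (46.8% against 48.0% in brain). For the glial and vascular lists, 4 of 6 astrocyte, 4 of 9 oligodendrocyte, 1 of 4 microglia and blood, and 0 of 4 endothelium promoters were lowest in brain. Among the bodies, 3 of 6, 5 of 7, 1 of 4 and 0 of 4 were lowest in brain, in the same order of lists.

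Of the tiles whose tissue levels lay farthest apart, 5 are shown with their sequence, because they carry the main patterns at promoters, introns and exons. CpGs are in capitals and the rest in lower case, 5′ to 3′ on the plus strand of mm10 from the RefSeq assembly. The first holds the first curated start of Shank2, the second lies just past its second curated start, and the third lies beside a predicted start of Shank2. The fourth lies in an intron of Nrxn2 and the last in the final coding exon of Shank3.
Shank2, first start, chr7:144175401-144175500: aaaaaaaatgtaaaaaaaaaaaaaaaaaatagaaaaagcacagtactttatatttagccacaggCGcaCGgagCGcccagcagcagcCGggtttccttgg
Shank2, second start, chr7:144284501-144284600: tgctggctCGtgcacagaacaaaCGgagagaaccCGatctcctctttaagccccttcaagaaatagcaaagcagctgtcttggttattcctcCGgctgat
Shank2, predicted start, chr7:144133301-144133400: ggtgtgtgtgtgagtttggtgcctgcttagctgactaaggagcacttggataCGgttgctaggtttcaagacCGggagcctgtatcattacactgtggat
Nrxn2, intron, chr19:6453501-6453600: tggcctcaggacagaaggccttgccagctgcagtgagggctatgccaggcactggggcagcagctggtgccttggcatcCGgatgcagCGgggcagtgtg
Shank3, exon 22 of 22, chr15:89558201-89558300: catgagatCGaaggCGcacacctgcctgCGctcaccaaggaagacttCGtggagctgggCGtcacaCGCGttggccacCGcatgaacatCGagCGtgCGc
The Shank3 tile held 11 CpGs, both curated Shank2 start tiles held 4 CpGs each, and the remaining tiles held 2 CpGs each.

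Among the 1010 member tiles, 103 were lower in brain than in liver and 37 were higher, against a background over all 758685 shared tiles of 5.04% lower and 4.76% higher. The member share of lower tiles was 10.2%. Against heart, 30 member tiles were lower in brain (background 1.75%) and 71 were higher (background 7.71%). Heart was lower than liver at 109 member tiles (background 7.94%) and higher at 19 (background 2.87%). In all, 236 member tiles (23.4%) were called in at least 1 of the 3 comparisons, which share their libraries pairwise, against a background of 18.9%. The calls were uneven among genes. Shank2 held 71 of its 202 tiles, Shank3 24 of 78, Nrxn2 43 of 152 and Dlgap2 52 of 298. Syt1 held 26 of 121, Dlg4 10 of 45 and Camk2a 8 of 49, whereas Bdnf held 1 of 47 and Snap25 1 of 18.

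**Figure D1:**
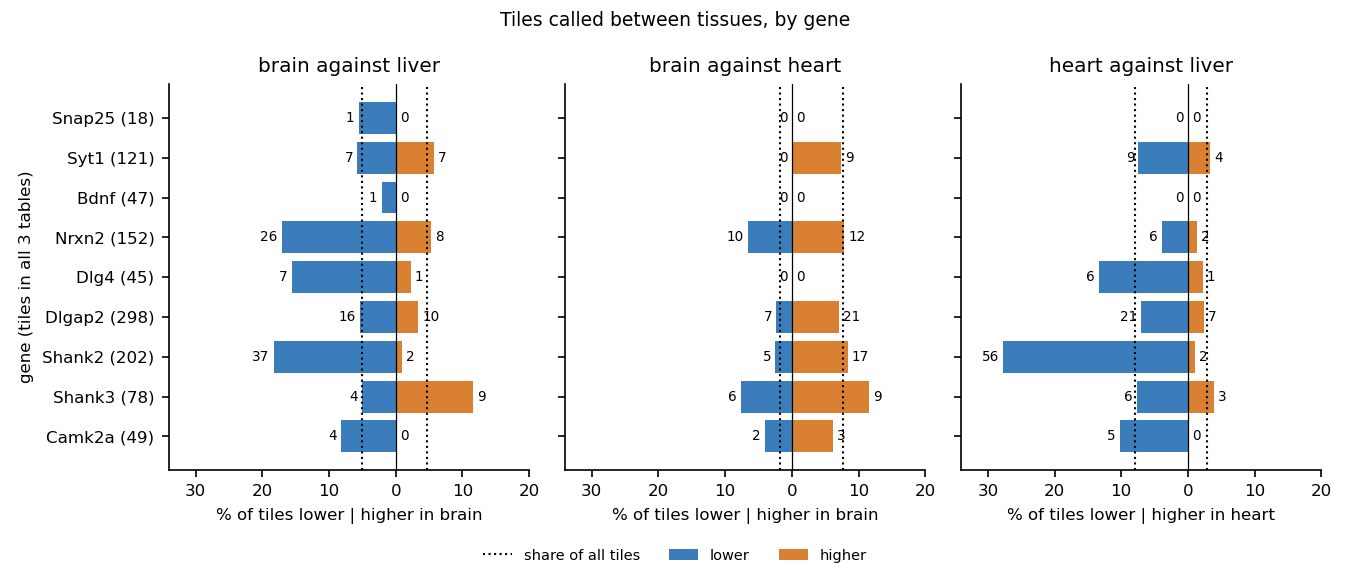
Share of each gene's tiles called lower (left of 0) or higher (right of 0) in 3 tissue comparisons, with the number of tiles at the bar ends and dotted lines at the share among all tiles. Shank2 had 37 tiles lower in brain than liver and 56 lower in heart than liver, both past the dotted line, whereas Bdnf and Snap25 had 1 called tile each.

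There were 20 curated promoters of the 9 genes with tiles in all 3 tissues, of which 6 were lower in brain than in liver (background 6.23% of 20207 promoters), at Shank2, Dlg4 and Camk2a, and 4 were lower in heart than in liver (background 10.1%), at Shank2 and Dlg4. The Camk2a promoter alone was lower in brain than in heart (background 2.36%). No promoter was called higher in brain than in liver (background 6.28%), higher in brain than in heart (background 9.86%) or higher in heart than in liver (background 3.53%) by limma, and the M-value scale also gave 0 in each of these. At an unadjusted p under 0.05, 0, 1 and 1 promoters were higher in those 3 comparisons, and 16 were lower in brain than liver, most of them by a few points. The share of all promoters at that unadjusted p was not computed, so these counts have no background. The median difference for brain against liver was -2.48 points over the 20 promoters and -0.365 points over all 20207 promoters.

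**Figure D2:**
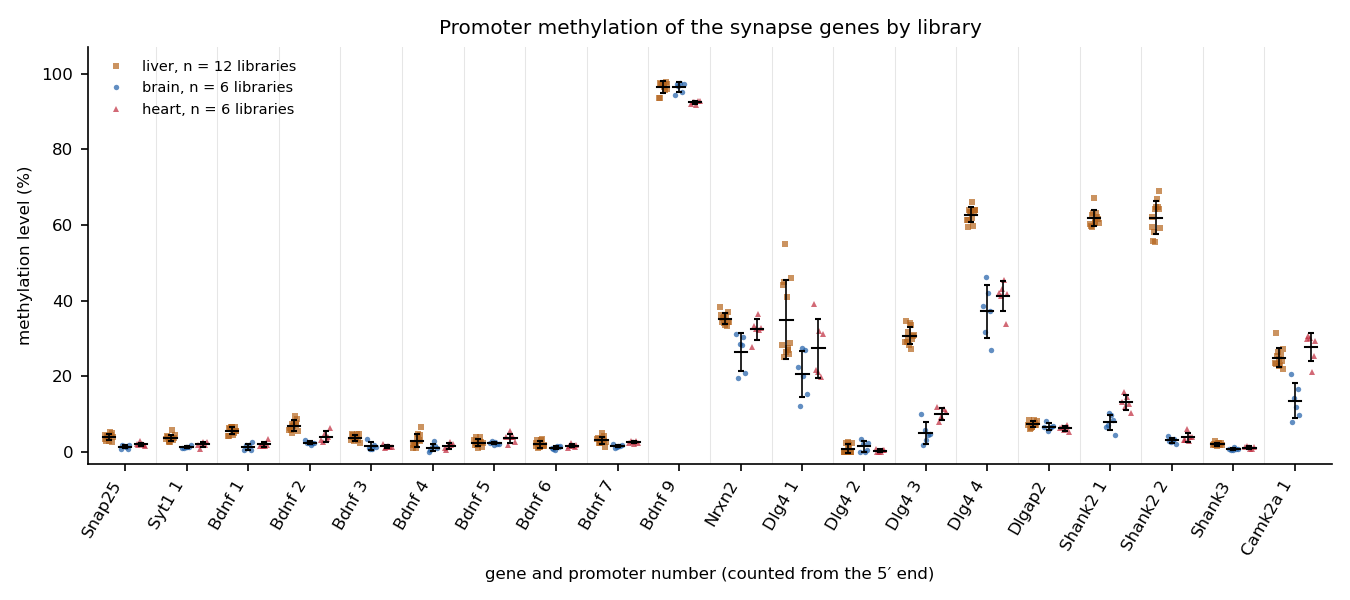
Methylation level (%) of each curated promoter with tiles in all 3 tissues; each point is 1 library, and bars give the mean and SD. The 2 Shank2 promoters stood at 61.8% and 61.9% in liver and under 14% in brain and heart, while the Snap25, Syt1, Shank3 and first 7 Bdnf promoters lay under 8% in every tissue mean.

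The Snap25 promoter and the first Syt1 promoter were nearly free of methylation in all 3 tissues. The Snap25 promoter (7 tiles; gene 20614, chr2:136713439-136782428) averaged 3.99% ± 0.894 in liver, 1.45% ± 0.441 in brain and 2.06% ± 0.402 in heart. Its difference between brain and liver, -2.54 points (SE 0.351, adjusted p = 9.5e-07), was larger than the library spread but small. The brain libraries ranged from 0.9% to 1.89% and the liver libraries from 2.57% to 5.43%, so the groups did not overlap. The first Syt1 promoter (8 tiles; gene 20979, chr10:108497650-109010980, minus strand) was close to it, at 3.74% ± 0.9 in liver, 1.33% ± 0.281 in brain and 2.03% ± 0.72 in heart. The second curated Syt1 start had no tile of its own.

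The Snap25 body (11 tiles) was the one member body called lower in brain than in liver (background 10.3% of 18295 bodies). It averaged 79.9% ± 1.84 in liver, 66.3% ± 7.84 in brain and 72.8% ± 2.69 in heart, a brain difference of -13.6 points against liver (SE 2.03, adjusted p = 2.3e-06). The brain libraries ran from 55.1% through a median of 70.7% to 72.3%, below every liver library. The widest tile lay in an intron at chr2:136744201-136744300, 30.8 kb past the first start. Liver libraries there ran from 46.3% through 64.2% to 75.8%. The 6 brain libraries were at 28.3%, 30.8%, 39.5%, 50%, 24.1% and 19.2%, and the heart libraries lay between 48.6% and 58.3%. Brain was lower than liver by a difference of -31.6 points (SE 4.44, adjusted p = 1.6e-06), with brain library 4 inside the liver range. Against heart the difference of -22.0 points was under the threshold, and it became -25.6 and was called without brain library 4.

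Syt1 showed the opposite sign far inside the gene, at a predicted transcript that starts 300166 bp past the first start. The promoter there held 2 tiles and liver was the low tissue. It averaged 15.7% ± 5.25 in liver, 67.2% ± 5.85 in brain and 57.5% ± 5.96 in heart, with brain libraries from 61.3% to 75.5% and liver libraries from 8.85% to 25.9%. This difference of 51.6 points (SE 2.7, adjusted p = 1.5e-14) was the largest excess of brain over liver among the 10 predicted member starts tested. The Syt1 body as a whole (111 tiles) was at 77.0% ± 0.707 in liver and 77.1% ± 1.67 in brain, and at 70.4% ± 0.849 in heart.

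Bdnf, whose transcripts begin at many separate first exons spliced to a common coding exon, was low at nearly every one of them. Its 9 curated start clusters lie between 109674700 and 109722921 on chromosome 2 (gene 12064), and 8 had tiles. The first promoter (4 tiles) was at 5.68% ± 0.943 in liver, 1.45% ± 0.778 in brain and 2.06% ± 0.672 in heart. The second (5 tiles) was at 7.0%, 2.52% and 4.08%, and the third (10 tiles) at 3.84%, 1.62% and 1.49%, in the same tissue order. The fourth to seventh promoters lay between 2.03% and 3.16% in liver, between 1.18% and 2.41% in brain and between 1.68% and 3.64% in heart. Liver was the highest tissue at the first 4 and at the sixth and seventh. The differences at the first, the second and the third between brain and liver were -4.23, -4.49 and -2.22 points (adjusted p = 3.1e-09, 4.2e-07 and 1.5e-05), all under the 10-point threshold. The ninth start lies at the coding exon, and its single tile was methylated in every tissue, at 96.4% ± 1.5 in liver, 96.4% ± 1.33 in brain and 92.4% ± 0.402 in heart. The eighth start had no tile.

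The Bdnf body (6 tiles) averaged 58.5% ± 2.92 in liver, 51.9% ± 2.49 in brain and 49.7% ± 1.97 in heart, and no contrast was called. One Bdnf tile was called, in an intron at chr2:109695501-109695600. Its brain libraries were at 45.5%, 21.1%, 29.3%, 33.3%, 31.4% and 16.9%, its liver libraries ran from 32.1% through 58.8% to 71.9%, and its heart libraries from 37.0% to 65.1%. The brain and liver ranges overlapped. The difference between brain and liver, -26.0 points (SE 4.98, adjusted p = 0.00012), lay just past the threshold. It ranged from -29.2 to -23.5 when each library was left out, and the call was lost without brain library 2, brain library 6, liver library 6 or liver library 12.

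Nrxn2 (gene 18190, chr19:6418756-6533217) held intronic tiles that were lower and coding-exon tiles that were higher in brain than in liver. Of its 102 intronic tiles, 25 were lower in brain than in liver and 2 were higher, against 6.54% and 5.91% of the 306251 intronic tiles of all genes. Of its 27 coding-exon tiles, 0 were lower and 5 were higher, against 4.44% and 3.24% of 89889 coding-exon tiles. Averaged over introns, the body was at 56.2% in liver, 48.1% in brain and 49.4% in heart. Averaged over coding exons it was at 39.8% in liver, 50.3% in brain and 37.3% in heart, with brain libraries between 47.6% and 52.9% and liver libraries between 39.1% and 40.4%. The mean over the whole body (135 tiles), 51.0% ± 0.627, 47.5% ± 1.58 and 45.3% ± 0.568 in liver, brain and heart, held both directions and was not called. Its promoter (8 tiles) was at 35.3% ± 1.49, 26.5% ± 5.02 and 32.5% ± 2.73, and the difference of -8.79 points between brain and liver (SE 1.5, adjusted p = 2.1e-05) was under the threshold.

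The 3 named Nrxn2 tiles all lay in introns and were lowest in brain. The first, chr19:6453501-6453600, had brain libraries at 21.4%, 54.9%, 29.7%, 33.5%, 15.2% and 43.0%, heart libraries between 68.6% and 74.2%, and liver libraries from 77.4% through 90.6% to 98.2%. No 2 tissues overlapped there, although the brain libraries were spread widely. Brain differed from liver by -56.6 points (SE 4.23, adjusted p = 1.8e-11) and from heart by -39.1 points (SE 4.88, adjusted p = 4.1e-07). At chr19:6421101-6421200, 2.4 kb past the start, brain averaged 35.9% ± 6.02 against 87.3% ± 9.0 in liver and 80.1% ± 5.01 in heart. At chr19:6446701-6446800 brain was at 34.1% ± 16.3 and heart at 45.2% ± 12.9, against 82.8% ± 11.5 in liver; brain and heart did not differ by the test there (adjusted p = 0.23).

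In contrast, 2 exons of Nrxn2 that were nearly free of methylation in liver and heart carried an intermediate level in brain. They were singled out after their values were seen. In exon 2 of 23, the 8 tiles with 7 or more CpGs (10 to 16 CpGs each, chr19:6427801-6428800) had liver means of 1.6% to 3.6%, heart means of 0.667% to 2.83% and brain means of 12.3% to 29.6%. Averaged over the 8 tiles, the brain libraries were at 19.7%, 18.9%, 21.9%, 17.1%, 28.6% and 13.1%, and the liver libraries lay between 1.74% and 2.84%. In all 8 tiles every brain library was above every liver library, and in 7 of them above every heart library. In the last exon, exon 23, 6 such tiles (chr19:6531201-6532000) had liver means of 1.3% to 4.93%, heart means of 1.25% to 5.0% and brain means of 11.6% to 31.7%, and in all 6 the brain libraries lay above the others. How often all brain libraries lie above those of liver or heart among all tiles was not computed, so these counts have no background. The adjusted p between brain and liver was at most 2.6e-06 for each of these 14 tiles, but 3 of them reached 25 points. The pattern was not confined to exons. The intronic tile chr19:6531101-6531200 (10 CpGs) was at 18.25% in brain, 1.12% in liver and 0.767% in heart. The intronic tile chr19:6498501-6498600 (11 CpGs) was at 14.2%, 4.41% and 2.0% in the same order. Other intronic tiles with 7 or more CpGs were low in every tissue, as at chr19:6497801-6497900 (0.867%, 2.5% and 0.983%).

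Shank3, which encodes a scaffold of the deep postsynaptic density (gene 58234, chr15:89493013-89560261), was more methylated in its last coding exons in both brain and heart than in liver. Its curated promoter (14 tiles) was unmethylated, at 2.1% ± 0.364 in liver, 0.852% ± 0.25 in brain and 1.21% ± 0.304 in heart. In exon 21 of 22, the large exon, the 7 tiles with 7 or more CpGs averaged 18.7% ± 2.42 in liver, 42.5% ± 4.23 in brain and 37.0% ± 3.1 in heart. The brain libraries ran from 36.1% to 47.9% and the heart libraries from 32.4% to 41.1%, so these overlapped, and the liver libraries ran from 15.2% to 23.8%. In exon 22, 2 such tiles averaged 15.8% ± 5.4 in liver, 52.9% ± 2.26 in brain and 42.1% ± 1.59 in heart. The tile of this exon printed above, chr15:89558201-89558300, had brain libraries at 54.2%, 57.4%, 50.8%, 60.2%, 60.3% and 55.4%, heart libraries between 41.7% and 47.4%, and liver libraries from 10.4% through 17.6% to 26.8%. The 3 tissues did not overlap. Brain was above liver by 38.4 points (SE 2.12, adjusted p = 4.6e-14) and heart was above liver by 26.9 points (SE 2.12, adjusted p = 5.8e-11).

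**Figure D3:**
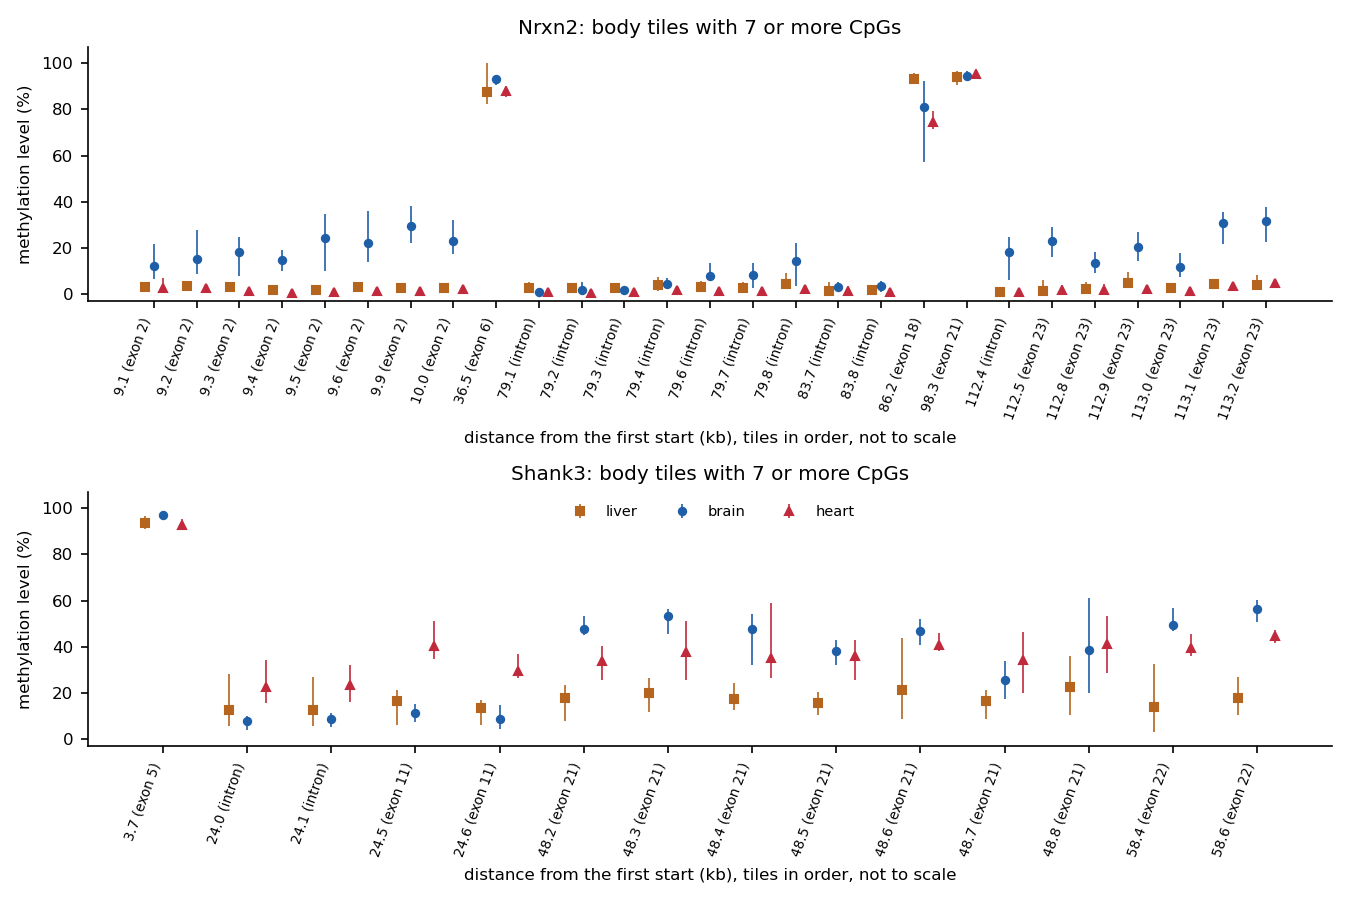
Methylation level (%) of body tiles with 7 or more CpGs in Nrxn2 (top) and Shank3 (bottom), in order along the gene with the distance from the first start in kb and the exon; points are tissue means and bars run from the lowest to the highest library. In Nrxn2 exons 2 and 23 the brain means lay between 11.6% and 31.7% and the liver and heart means at 5.0% or less; in Shank3 exons 21 and 22 brain and heart lay above liver.

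Other parts of Shank3 ran differently. In exon 11, the 2 CpG-dense tiles were highest in heart, at 35.0% ± 4.9, against 14.9% ± 3.43 in liver and 10.2% ± 3.08 in brain. At the coding tile chr15:89549201-89549300, also in exon 21, brain was instead the low tissue. Its brain libraries were at 33.3%, 47.4%, 35.2%, 37.3%, 24.0% and 47.6%, against 72.2% to 84.4% in liver and 77.7% to 86.2% in heart, and brain differed from liver by -41.6 points (SE 2.94, adjusted p = 6.3e-12). The exon thus held tiles of both signs. The intronic tile chr15:89555601-89555700 was low in heart, at 36.2% ± 5.99, against 80.6% ± 4.71 in liver and 77.5% ± 6.15 in brain. A predicted start 33293 bp past the curated start had a promoter of 5 tiles at 60.9% ± 1.56 in liver, 39.1% ± 7.54 in brain and 62.6% ± 1.35 in heart. It was lower in brain than in either tissue, by differences of -21.9 points (SE 2.01, adjusted p = 8.2e-10) and -23.5 points (SE 2.32, adjusted p = 7.6e-09). The Shank3 body (60 tiles) was the one member body with its highest mean in brain by over 1 point, at 61.2% ± 3.18 against 57.9% ± 1.23 in liver and 56.4% ± 1.09 in heart, and it was not called.

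Tiles with 7 or more CpGs that were higher in brain than in liver were rare in the genome. They made up 0.68% of the 82230 such tiles, while 9 of the 110 such member tiles (8.18%) met the call, 6 in Shank3 and 3 in Nrxn2. Tiles of this kind that were lower in brain made up 1.43% of all, while 4 of the 110 member tiles (3.64%) met that call, all at the curated promoters of Shank2. Neighbouring tiles share fragments and are not independent, and this group of tiles was formed after the values were seen, so no test is given.

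Shank2 (gene 210274, chr7:143978077-144426043) held the largest promoter differences. Its 2 curated starts, 108934 bp apart, were methylated in liver and low in brain and heart, where the second was nearly free of methylation. At the first (8 tiles), the liver libraries ran from 59.5% through 61.1% to 67.1%. The brain libraries were at 6.8%, 7.3%, 10.2%, 9.7%, 8.4% and 4.6%, and the heart libraries at 13.4%, 16.0%, 12%, 14.5%, 12.8% and 10.4%. Liver was far above the other two tissues, which differed by -5.35 points for brain against heart (SE 1.32, adjusted p = 0.0022), under the threshold. Brain differed from liver by -53.9 points (SE 1.15, adjusted p = 5.8e-22) and heart from liver by -48.6 points (SE 1.15, adjusted p = 7.3e-21). At the second start (7 tiles), liver averaged 61.9% ± 4.35, brain 3.14% ± 0.672 and heart 3.93% ± 1.17. Brain and heart differed by -0.793 points there, within their spread (adjusted p = 0.81). All 15 tiles of the 2 promoters were called lower in both brain and heart than in liver. Among the 114001 curated promoter tiles of all genes, 1.99% were lower in brain and 2.54% lower in heart than in liver. The 15 tiles are neighbours within 2 promoters and are not independent. The tile on the first start, printed first above, was at 74.5% ± 3.65 in liver, 4.32% ± 2.03 in brain and 9.82% ± 4.92 in heart. The tile 157 bp past the second start was at 65.8% ± 7.67, 2.2% ± 1.93 and 3.63% ± 1.66.

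**Figure D4:**
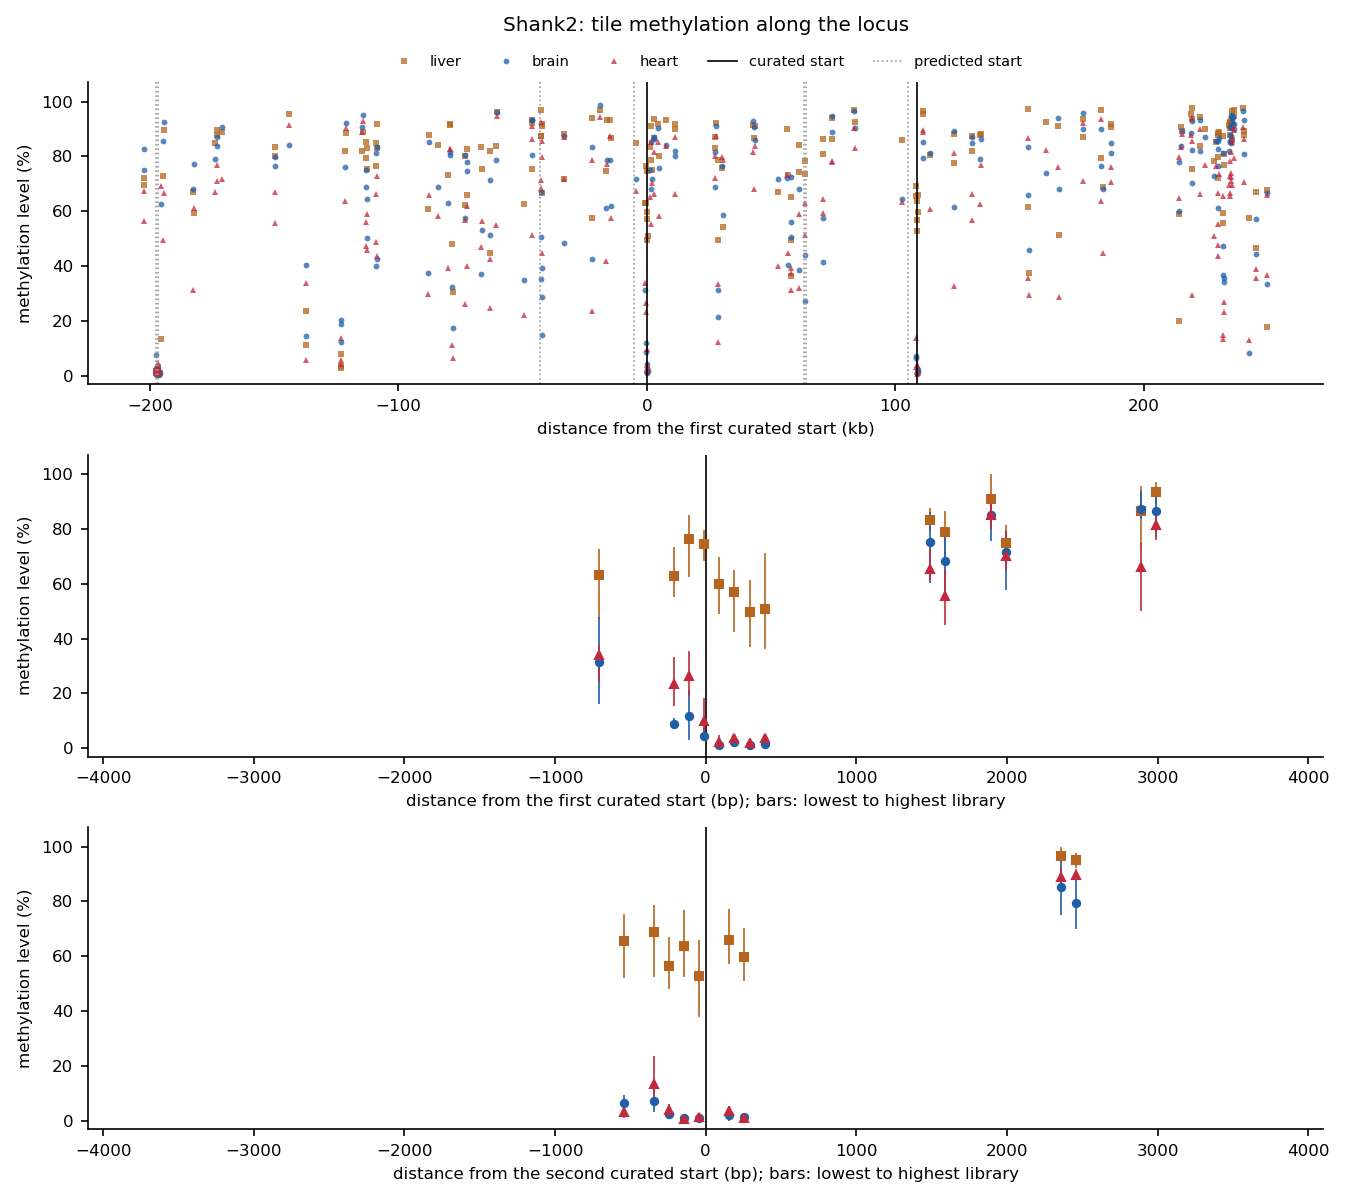
Methylation level (%) of Shank2 tiles along the locus in kb from the first curated start (top, tissue means) and within 4000 bp of the first (middle) and second (bottom) curated start, where bars run from the lowest to the highest library; lines mark curated (solid) and predicted (dotted) starts. The tiles of the 2 curated promoters had liver means from 49.6% to 76.4%, brain means from 0.883% to 31.4% and heart means from 0.8% to 34.0%, and the 12 tiles at the 2 predicted starts farthest upstream were near 0 in every tissue.

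The predicted starts of Shank2 fell into several patterns. Those at 143978077 and 143978618, 197383 and 196842 bp upstream of the first curated start, were unmethylated in every tissue, with means between 1.21% and 2.55%. The predicted start at 144132486 (6 tiles) was lowest in brain, at 86.9% ± 1.62 in liver, 39.3% ± 6.36 in brain and 73.8% ± 1.52 in heart. Its brain libraries were at 47.1%, 28.2%, 41.0%, 40.7%, 42.1% and 36.8%, and its heart libraries lay between 71.2% and 75.7%. Brain differed from liver by -47.6 points (SE 1.74, adjusted p = 1.2e-17) and from heart by -34.5 points (SE 2.01, adjusted p = 1.1e-12). The tile chr7:144133301-144133400, 865 bp past this start, was at 91.8% ± 2.63 in liver, 28.8% ± 4.64 in brain and 79.8% ± 10.5 in heart. The predicted start at 144238691 (2 tiles) had the same order, at 75.9% ± 5.07, 35.7% ± 14.4 and 57.1% ± 4.31, with brain libraries from 17.8% to 52.1%. The start at 144170510 (1 tile) was at 84.7% ± 3.96, 71.8% ± 4.76 and 67.3% ± 5.02.

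The Shank2 body (104 tiles) was lowest in heart, at 65.7% ± 0.458, against 82.1% ± 0.547 in liver and 75.3% ± 2.41 in brain. It was the one member body called lower in heart than in liver (background 22.9%), with a difference of -16.5 points (SE 0.666, adjusted p = 1.8e-16). The heart libraries lay between 65.0% and 66.2% and the liver libraries between 80.9% and 82.9%. Of the Shank2 tiles, 26 also touch the uncharacterized gene Gm14372, and 5 of these were called.

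No member body was called higher in brain than in liver (background 8.43%), lower in brain than in heart (background 2.56%), higher in brain than in heart (background 18.9%) or higher in heart than in liver (background 4.7%) by limma, on either the percent or the M-value scale. At an unadjusted p under 0.05, 1, 1, 5 and 0 bodies lay in these directions, and the share of all bodies at that p was not computed. The median body difference between heart and liver was -6.83 points. Over all 18295 bodies it was -5.54 points, in a genome in which heart was lower as a whole.

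Dlg4 (gene 13385, chr11:70017203-70045535) was lower in brain and heart than in liver at its downstream starts. The third promoter (2 tiles, start 70023982) averaged 30.8% ± 2.35 in liver, 5.08% ± 2.84 in brain and 10.1% ± 1.57 in heart. The brain libraries were at 10.2%, 2.0%, 6.0%, 3.2%, 4.4% and 4.8%, and the liver libraries between 27.2% and 34.6%. Brain differed from liver by -25.7 points (SE 1.15, adjusted p = 4.9e-16). The fourth promoter (6 tiles, start 70029835) averaged 62.7% ± 1.99, 37.2% ± 6.91 and 41.2% ± 3.91, a difference of -25.6 points between brain and liver (SE 2.05, adjusted p = 6.2e-11) and of -21.5 points between heart and liver. Brain and heart did not separate at either promoter by the call (-4.98 and -4.06 points). The tile with the widest range, chr11:70029701-70029800, lay in the fourth promoter with a single CpG. There the brain libraries were at 8.7%, 7.1%, 7.0%, 11.1%, 12% and 3.8%, the heart libraries ran from 12.2% to 39.3%, and the liver libraries from 48.4% through 60.2% to 72.0%.

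At the first Dlg4 promoter, 1 tile was measured, and the liver libraries fell apart, from 25% through 28.6% to 54.9%. Brain was at 20.7% ± 6.12 and heart at 27.5% ± 7.78, and the difference of -14.3 points between brain and liver passed the call (SE 4.17, adjusted p = 0.0059). The brain libraries ran from 12.2% to 27.4%, so the brain and liver ranges overlapped. The second promoter, also 1 tile, was under 2% in every tissue mean. A predicted start between the third and the fourth (7 tiles) was at 36.3% ± 3.71 in liver, 16.3% ± 5.1 in brain and 19.1% ± 1.98 in heart. The Dlg4 body (31 tiles) was at 68.3% ± 1.35, 64.9% ± 2.29 and 63.6% ± 0.8, and no contrast was called.

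Camk2a (gene 12322, chr18:60925307-60988152), which encodes the abundant forebrain kinase subunit, had the one curated member promoter that was called lower in brain than in both other tissues. The 4 tiles averaged 25% ± 2.57 in liver, 13.6% ± 4.64 in brain and 27.8% ± 3.77 in heart. The brain libraries were at 20.6%, 8.0%, 14.4%, 12%, 16.6% and 9.8%, and each lay below every liver library (22.1% to 31.5%) and every heart library (21.2% to 30.7%). Brain differed from liver by -11.4 points (SE 1.66, adjusted p = 2.2e-06) and from heart by -14.2 points (SE 1.92, adjusted p = 1.3e-06). The second curated start had 2 tiles in the brain and heart tables only, at 65.1% ± 9.26 and 88.8% ± 10.6 in brain and at 34.1% ± 6.33 and 67.8% ± 5.63 in heart. These 2 tiles, both with the higher mean in brain, were left out of the fit of all 3 tissues. A test of brain against heart at them is not given here. The intronic tile chr18:60945801-60945900 had brain libraries at 57.1%, 11.9%, 60%, 36.8%, 51.4% and 25%. They met the heart range, 60% to 93.5%, and lay below the liver range, 80% to 100%. The difference between brain and liver was -49.0 points (SE 5.58, adjusted p = 4.9e-08). The Camk2a body (43 tiles) was at 71.8% ± 1.07, 66.6% ± 4.8 and 65.0% ± 1.75.

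Dlgap2, the largest locus, at 762.7 kb (gene 244310, chr8:14095776-14853426), had a low promoter and calls scattered in both directions. The promoter (13 tiles) was at 7.33% ± 0.778 in liver, 6.77% ± 0.874 in brain and 6.32% ± 0.672 in heart, and the 3 tissues overlapped. Of its 298 tiles, 21 were higher in brain than in heart and 7 were lower, and 21 were lower in heart than in liver and 7 were higher, shares close to those of all tiles. At chr8:14695301-14695400 the 3 tissues did not overlap, with liver libraries from 47.2% to 59.0%, brain libraries from 67.5% to 85.5% and heart libraries from 16.4% to 26.3%. Brain was above heart there by 55.2 points (SE 3.21, adjusted p = 1.2e-12). At chr8:14226701-14226800 heart was again the low tissue, at 28.2% ± 6.12 against 81.7% ± 6.24 in liver and 63.8% ± 13.5 in brain. At chr8:14618201-14618300 liver was low, at 34.9% ± 8.26 against 84.5% ± 5.75 in brain and 86.7% ± 3.44 in heart. Its predicted starts at 14368819 and 14450332 were methylated in every tissue, with means from 66.2% to 83.3%. The body (276 tiles) was at 78.2% ± 0.62, 76.7% ± 2.08 and 69.7% ± 0.472.

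**Figure D5:**
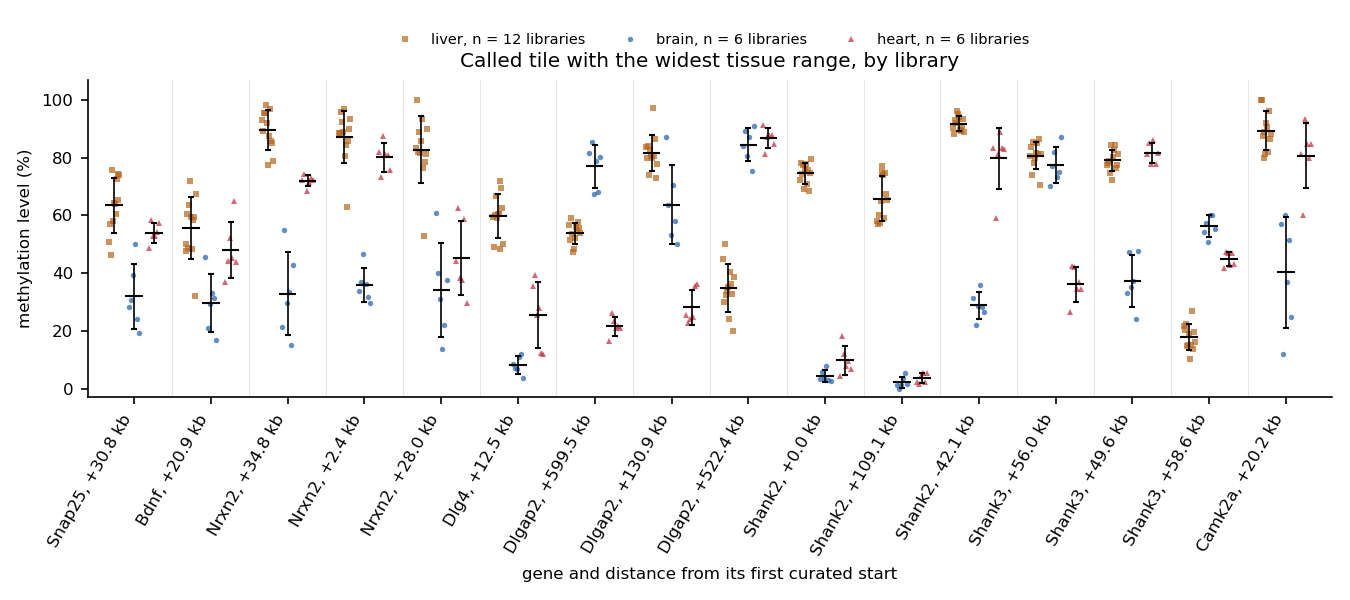
Methylation level (%) of the named tiles, without that of Syt1, by library, with mean and SD; labels give the gene and the distance from its first curated start. The brain libraries spread widely at the Nrxn2 tile at 34.8 kb (15.2% to 54.9%) and the Camk2a tile (11.9% to 60%) and narrowly at the 2 Shank2 start tiles (0.0% to 7.8%).

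By position, calls between brain and liver differed in sign. The positions overlap, because a tile near a start could count both as a promoter tile and as an intronic or exonic tile. Of 734 intronic member tiles, 79 were lower in brain (10.8%; 6.54% of the intronic tiles of all genes) and 20 were higher (2.72%; 5.91%). Of 139 coding-exon tiles, 4 were lower (2.88%; 4.44%) and 15 were higher (10.8%; 3.24%), 8 of the latter in Shank3 and 5 in Nrxn2. Of the 119 tiles at curated promoters, 21 were lower (17.6%; 1.99%) and 0 were higher (background 2.13%). The 15 Shank2 tiles made up most of these, with 5 in Dlg4 and 1 in Camk2a.

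Brain libraries 2 and 6 stood together at several regions, which were picked out after their values were seen. Both lay below the other 4 brain libraries at 4 of the 20 curated promoters (9.76% of all promoters), 5 of the 10 predicted promoters and 6 of the 9 bodies (8.03% of all bodies), and both lay above them at 3 (background 12.5%), 1 and 0 (background 25.8%). No share over all predicted promoters was computed. At the 17 named tiles both lay below the others at 3 and above them at 3. The remaining regions showed neither order, and at the Snap25 body libraries 1 and 5 were the low pair, at 57.6% and 55.1%. Libraries 2 and 6 were the 2 lowest at the Nrxn2 promoter (19.6% and 20.8%), the Camk2a promoter (8.0% and 9.8%), the fourth Dlg4 promoter (31.7% and 27.1%), and the predicted starts of Shank2 at 144238691 (17.8% and 18%) and of Shank3 (32.2% and 31.6%). They were the 2 highest at the Nrxn2 tile 34.8 kb past the start (54.9% and 43.0%) and at the low Shank3 tile of exon 21 (47.4% and 47.6%). Over the 7 oligodendrocyte marker bodies the same 2 libraries were the highest of the 6, at 47.4% and 50.6% against 37.5% to 44.5%. They were also the highest over the 6 astrocyte marker bodies, at 66.8% and 65.4% against 59.1% to 65.3%. At the 9 oligodendrocyte marker promoters they were again the highest (29.5% and 34.1%). At the 6 astrocyte marker promoters library 2 was highest (29.8%) but library 6 was not among the 2 highest (29.2%). At the 4 microglia and blood marker promoters library 2 was highest (81.9%) and library 6 lowest (73.15%). Neither was highest over the 4 bodies of that list (76.5% and 78.4%). The 7 neuron marker bodies lay between 47.2% and 49.3% in all 6 libraries, and the 10 neuron marker promoters between 12.4% and 16.7%, with neither library at an end of that range. The 103 member tiles called lower in brain than liver were chosen by that call, so their gap between brain and liver was fixed by the choice. Over them, the 6 brain libraries ranged from 29.8% to 37.7% and the liver libraries from 72.1% to 74.8%. The part that the cellular makeup of the brain pieces had in these differences was not tested.

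Other synapse genes were taken from a list that did not hold the 9 members. Of 27 promoters of 23 vesicle and active zone genes, 2 were lower in brain than in liver and 0 higher, against 6.23% and 6.28% of all promoters. Syt4 was among them, at 43.2% ± 3.81 in liver and 16.6% ± 5.79 in brain. Of 33 promoters of 21 postsynaptic genes, 5 were lower and 0 higher, at Dlg1, Dlg2, Dlgap1, Lrrtm2 and Nlgn2. The third promoter of Dlg1, a relative of Dlg4, was at 76.5% ± 3.99 in liver, 19.4% ± 6.75 in brain and 41.8% ± 2.94 in heart. The median levels of the first promoters in the 2 groups were 3.93% and 2.79% in liver and 1.79% and 1.18% in brain. Of 22 bodies in each group, 3 and 2 were lower in brain than in liver (background 10.3%), and 1 and 0 were higher (background 8.43%), the former at the vesicle priming gene Unc13a (33.3% in liver and 44.5% in brain, a difference of 11.2 points).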

How the data were processed

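DNA methylation was profiled by RRBS in 24 libraries of liver, brain and heart. Per the study's methods, a sequencing company made the libraries and mapped the reads with its own procedures. The authors computed levels over 100 bp tiles with methylKit and kept tiles covered by over 10 reads in all replicates and under an upper percentile of coverage. The submitters' processing notes name Bismark, methylKit and mm10, and the mapper's version is not given in the sources used here. The deposited values are methylation fractions (0 to 1) per tile and library, autosomes only, 1 table per tissue, filtered separately. They hold no counts, so depth is unknown and no interval was computed. Fractions were multiplied by 100.

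Tiles in all 3 tables were assigned to RefSeq genes (GRCm38, the mm10 primary assembly). Shares by position over all genes used introns and coding exons of any transcript. Curated starts within 500 bp of each other formed a promoter, which took tiles within 1000 bp, and the remaining tiles of a gene formed its body. Starts that only predicted transcripts have form promoters of their own, an alternative chosen after seeing the data, and their values and p come from a fit with predicted transcripts added. Limma 3.58.1 (R 4.3.3, eBayes with trend) was fitted to all tiles, promoters or bodies with tissue as the factor, and p-values were adjusted by Benjamini-Hochberg over each whole table. The fit was tested on simulated data. Tissues share some mice, which the columns do not identify, and the p-values treat libraries as independent and measure only the spread between them. Tissue cannot be told apart from any difference in how the 3 tables were made. Labels of 2 mouse numbers give opposite genders in different tissues.

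The members and lists were chosen with earlier results of these data known. For each member the text gives its promoters, its body and, of its called tiles, the one with the widest range of tissue means, or up to 3 over 1000 bp apart for Bdnf, Dlgap2, Shank2, Shank3 and Nrxn2. The named tile of Syt1 and 1 gene of the synapse list are not reported here. Further tiles were chosen after their values were seen. Alternatives were the M-value scale (0.01 added to both fractions), other size thresholds, no trend, pairwise tables, other promoter windows and tile minimums, predicted transcripts, bodies without promoters of other genes, and leaving out each library.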

Additional observations from a re-analysis of the deposited data

Results flagged for a closer look

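Among the promoters, bodies and named tiles, 92 groups of 6 libraries (brain and heart) were examined for a library far from the others, and 7 were found, beside the about 1 in 20 groups that chance gives; liver, with 12 libraries, was not examined. In brain, library 1 was high at the third Bdnf promoter (3.39%, next 1.82%). In heart, library 6 was high at the first Bdnf promoter (3.35%, next 2.17%) and library 1 at the third (2.16%, next 1.51%). Heart library 3 was high at the second Shank2 promoter (6.16%, next 4.06%) and over the Syt1 body (72.1%, next 70.2%). Heart library 5 was low at the fourth Dlg4 promoter (33.9%, next 41.2%). Heart library 2 was low at the Shank2 tile beside the predicted start, chr7:144133301-144133400 (59.1%, next 81.1%).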

How the results depend on the processing

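No paired analysis was possible because the library columns carry no mouse number and cannot be paired across tissues. With a threshold of 10 points in place of 25, member tiles lower and higher in brain than liver numbered 208 and 108 (13.2% and 11.4% of all tiles), in brain than heart 76 and 263 (5.28% and 22.2%), and in heart than liver 316 and 45 (23.5% and 5.33%); of the 1010 member tiles, 108 and 45 are 10.7% and 4.46%, under those shares. With 25 points in place of 10, 4 of the 20 member promoters were lower in brain than liver (1.95% of all promoters), 0 were lower in brain than heart (0.614%) and 2 lower in heart than liver (2.65%), and 0 bodies were lower in brain than liver or in heart than liver. With predicted transcripts added, an alternative chosen after seeing the data, 11 of 30 member promoters were lower and 1 higher in brain than liver (9.09% and 8.51% of 30145 promoters), 4 lower in brain than heart (3.45%), and 8 lower and 1 higher in heart than liver (14.9% and 4.84%); the same change gave 1 body higher in brain than heart, that of Shank2. These follow from the thresholds and the added starts. Leaving out each library gave 96 to 105 tiles lower and 36 to 41 higher in brain than liver, 27 to 36 lower and 69 to 80 higher in brain than heart, and 106 to 112 lower and 16 to 20 higher in heart than liver. The M-value scale, the fit without trend and the pairwise tables kept the call of all 51 differences at the named tiles, and no called difference was reversed among the alternatives run. Depth is unknown, so how far it limits single tiles, above all promoters of 1 tile, could not be assessed.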
